A study of Rattus norvegicus with 6 samples.

Results

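Aminoacyl-tRNA synthetases are the enzymes that join each amino acid to its transfer RNA (tRNA), the step that sets which amino acid is read into a protein. Animal cells keep one set for the cytosol and another, encoded by separate nuclear genes, for the small ribosomes inside mitochondria. The genes described here are the 36 of 16551 genes in the deposited mRNA table whose symbol has the form of a synthetase name, taken by that name and not by any measured value. Of these, 20 encode cytosolic enzymes or enzyme subunits and 16 encode mitochondrial enzymes, whose symbols end in 2. The cytosolic list was complete, and of the 17 mitochondrial genes listed Mars2 had no row under that symbol in the mRNA table. Gars and Kars serve both compartments from a single gene and are counted as cytosolic. Eprs carries the glutamyl and the prolyl enzyme on a single chain, and Farsa and Farsb are the alpha and beta subunits of the phenylalanyl enzyme.

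The cells were primary cultures dissociated from rat dorsal root ganglia, the sensory ganglia along the spinal cord, of the lumbosacral region. One group, labelled DM and taken here as the high-glucose group, is described as kept in medium with 45 mmol/L glucose for 48 h, and the other is the control group in DMEM, whose glucose level is not named in the labels. Each group had 3 samples, called duplicates in the labels, so p-values here reflect just the variation among these 6 libraries, part or all of which may be technical. The labels name no strain, age or sex and no control for osmolarity, and they mention a paraformaldehyde step without saying whether the sequenced cells went through it. The genes were read from 28780612 to 33108451 reads per sample. Levels are given in CPM, the deposited log2 value taken back to a linear scale, which counts reads relative to the scaled library size and is not corrected for gene length. Levels of different genes are therefore not compared. Fold changes are high glucose against control, on the log2 scale where so named, with the standard error (SE) of the limma fit over all genes and n = 3 per group.

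Most cytosolic enzymes carry out their work alone or in a large multisynthetase complex that holds 8 of them on a scaffold of 3 further proteins. Many of the cytosolic genes are known targets of ATF4, a transcription factor that cells make when amino acids run short or protein folding is disturbed, which binds a composite DNA element with the core letters TGATGCAA or, read on the other strand, its reverse complement. Dominant mutations in several cytosolic synthetase genes cause inherited neuropathies of peripheral nerve, the tissue whose sensory cell bodies lie in these ganglia.

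The promoter stretches that hold this 8-letter element are shown first, because the element was found on the cytosolic side alone among the members searched. The promoters come from RefSeq (build GRCr8) and span 250 bases before to 50 bases after the annotated start, and 32 of the 36 members had one (17 cytosolic, 15 mitochondrial). Dars, Gars and Rars were among those with no entry. The element, searched on both strands, lay in 7 of the 17 cytosolic promoters (41.2%) and in 0 of the 15 mitochondrial promoters, beside 0.795% of all 33469 promoters in the table. In the stretches below, printed 5′ to 3′ on the strand of the gene, capitals mark the element. Those of Cars and Yars lie after the annotated start and are cut to 30 bases.
Aars: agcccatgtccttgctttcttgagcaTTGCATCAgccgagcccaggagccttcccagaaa
Cars: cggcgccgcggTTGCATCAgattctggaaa
Iars: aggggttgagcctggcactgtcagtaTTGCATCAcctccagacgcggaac
Mars: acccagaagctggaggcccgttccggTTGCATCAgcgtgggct
Nars: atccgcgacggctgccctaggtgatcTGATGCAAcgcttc
Tars: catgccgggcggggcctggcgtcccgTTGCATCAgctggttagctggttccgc
Yars: cggagctacgagctcagcTGATGCAAcctg

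The stretches are chr19:55908344-55908403 (plus strand) for Aars, chr1:208225334-208225363 (minus) for Cars, chr17:15193653-15193702 (minus) for Iars, chr7:65023754-65023796 (minus) for Mars, chr18:60275783-60275822 (minus) for Nars, chr2:62114803-62114855 (minus) for Tars and chr5:146820183-146820212 (plus) for Yars. In Iars, Mars, Nars and Tars the element began 24, 17, 14 and 27 bases before the start, and in Aars 112 bases before it. In Cars it began at base 18 of the transcript and in Yars at base 39. The looser form TGATGNAA, which contains the exact element, was also searched on both strands. It added 1 more match, at base 10 after the Aars start, in no further member, and lay in 3.98% of all promoters. A match of letters is a description of the window and was not tested as a binding site.

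Nearly all cytosolic synthetase mRNAs were lower in high glucose. A fall passed the test in 19 of 20 genes and a rise in 0 (limma, adjusted p under 0.05). The median log2 fold change was -0.40, from -0.68 for Yars, the tyrosyl enzyme, to 0.04 for Qars, the glutaminyl enzyme. The mitochondrial genes did not move as a group: 4 of 16 rose, 2 fell and 10 missed the threshold, and the median was 0.04, with Hars2 the lowest at -0.33. Over all 16551 genes, 25.5% were called lower and 24.9% higher, and the median was 0.01. The 4 of 16 mitochondrial genes called higher are a share near that background, and the 19 of 20 cytosolic genes called lower are not. Counting both directions, 25 of the 36 members passed, beside 50.5% of all genes. With plain library totals in place of the deposited scaling factors, the median of all genes moved up by over 0.1 to 0.13, and the calls over all genes went from 4228 lower and 4126 higher to 2847 lower and 5932 higher. The synthetase calls were then 16 lower and 1 higher (Qars) among the cytosolic and 1 lower (Hars2) and 8 higher among the mitochondrial genes. That change of scaling adds the same amount to every gene, so values relative to the median of all genes (-0.41 for the cytosolic and 0.03 for the mitochondrial median) are the same by construction.

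**Figure D1:**
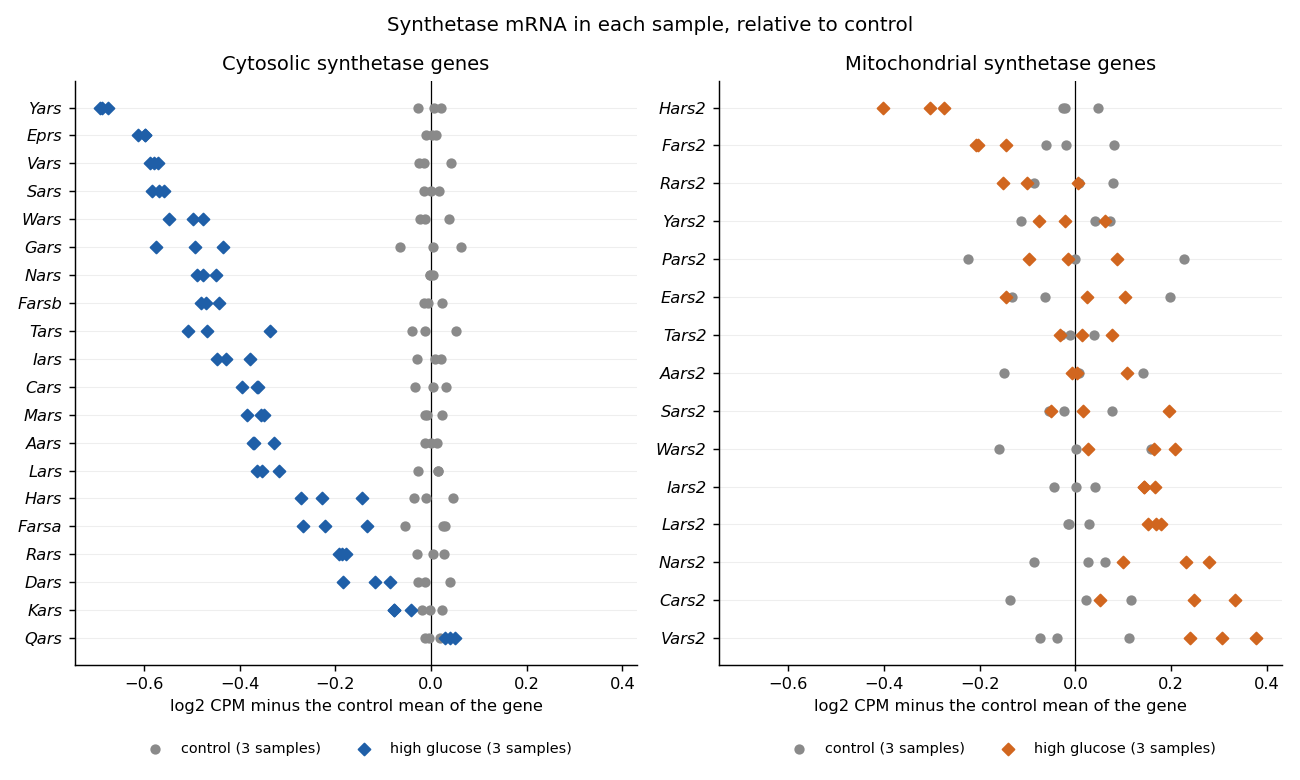
Each row is a synthetase gene and each point a sample, placed at its log2 CPM minus the gene's control mean (circles, 3 control samples; diamonds, 3 high-glucose samples). In 19 of 20 cytosolic genes all high-glucose samples lie below all control samples, whereas 9 mitochondrial genes have overlapping groups.

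Groups of samples were fully apart in 27 of the 36 members (21 lower, 6 higher), beside 57.6% of all genes (28.9% lower, 28.7% higher). The 20 cytosolic genes together had 4995, 4984 and 4986 CPM in control 1 to 3 and 3662, 3649 and 3676 CPM in high glucose 1 to 3. The 16 mitochondrial genes together had 266, 265 and 265 CPM in control and 279, 282 and 280 CPM in high glucose. The cytosolic sum was lower, and the mitochondrial sum higher, in each high-glucose sample than in each control sample. A large part of the mitochondrial difference came from Iars2 (means of 63.2 CPM in control and 70.2 CPM in high glucose). As given above, 10 of the 16 mitochondrial genes did not pass. In such bulk RNA, fewer cells of a type and less RNA per cell cannot be told apart.

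The 6 cytosolic genes with the smallest p were Eprs, Sars, Yars, Nars, Vars and Wars. Eprs (ENSRNOG00000002393) had 1082, 1097 and 1091 CPM in control and 713, 719.6 and 719.6 CPM in high glucose. It fell 1.52-fold (log2 fold change -0.60 ± 0.02 SE, limma adjusted p = 3.45e-12), and it is also the cytosolic gene with the most reads. Sars, the seryl enzyme, had 359.9, 356 and 364 CPM in control and 244, 243 and 240.1 CPM in high glucose, a 1.49-fold fall (-0.57 ± 0.02). In both genes the samples of a group lay close together and the groups stood far apart.

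Yars (ENSRNOG00000007213), whose product can also be cut into cytokine-like fragments, had 141, 138 and 142 CPM in control and 86.9, 87.9 and 87.2 CPM in high glucose. This was the largest fall of any synthetase gene, 1.61-fold (-0.68 ± 0.03, limma adjusted p = 1e-10). Nars, the asparaginyl enzyme, went from 376, 374 and 374 CPM to 275, 267 and 269 CPM (1.39-fold lower). Vars, the valyl enzyme, went from 225, 217 and 215 CPM to 146, 147 and 147 CPM (1.49-fold lower). Wars, the tryptophanyl enzyme, which interferon-gamma also induces, went from 224, 225 and 233 CPM to 161, 156 and 163 CPM (1.42-fold lower). No high-glucose sample of these genes reached the lowest control sample.

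Between these and the small changes stood a broad middle group. Farsb (-0.46 ± 0.03), Tars (-0.44 ± 0.04), Iars (-0.42 ± 0.03), Cars (-0.37 ± 0.03) and Lars (-0.34 ± 0.02), for phenylalanine, threonine, isoleucine, cysteine and leucine, each fell on the log2 scale. In each of these genes, too, the groups were apart. The subunits of the phenylalanyl enzyme, which works as a tetramer of alpha and beta chains, fell by different amounts. Farsa, the cytosolic gene with the fewest reads, went from 51.2, 48.5 and 51.4 CPM to 41.8, 45.9 and 43.2 CPM (-0.21 ± 0.04). The interval of its log2 fold change, -0.30 to -0.12, did not meet that of Farsb, -0.53 to -0.40 (95% limma intervals), and the difference itself was not tested. The Farsa call ended with plain library totals (-0.09, adjusted p = 0.0861 in limma, within a range of 0.000347 to 0.0861 over the alternatives).

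The smallest cytosolic changes were those of Rars (-0.19 ± 0.03), Dars (-0.13 ± 0.04), Kars and Qars, for arginine, aspartate, lysine and glutamine. All 4 enzymes sit in the multisynthetase complex. The Dars call ended with plain library totals (-0.02, limma adjusted p = 0.736) and when all genes shared 1 variance prior (0.053), within a range of 0.00584 to 0.736. Kars had 121, 123 and 125 CPM in control and 116, 116 and 119 CPM in high glucose, a 1.05-fold fall with an adjusted p of 0.0481 in limma. Under 9 of 15 alternatives it was still lower but no longer passed, among them each sample left out except high glucose 3 (adjusted p from 0.0553 to 0.146). With plain library totals its log2 fold change was 0.05, and over all alternatives the adjusted p ran from 0.035 to 0.199. Qars, singled out after its values were seen, had 120, 121 and 123 CPM in control and 124, 126 and 125 CPM in high glucose. Its groups did not overlap, but the log2 fold change of 0.04 ± 0.02 did not pass (limma adjusted p = 0.2, interval -0.01 to 0.09). With plain library totals (0.15) and with quantile normalization (0.07) Qars passed as higher.

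**Figure D2:**
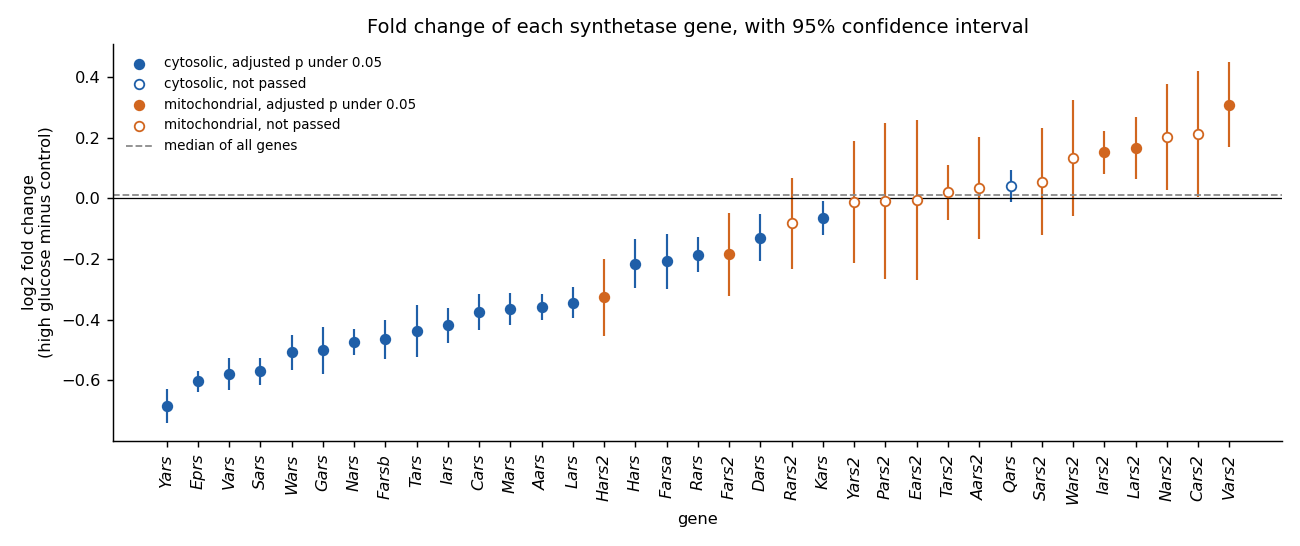
Log2 fold change (high glucose minus control) of the synthetase genes with its 95% limma interval, cytosolic in blue and mitochondrial in orange, filled where the adjusted p is under 0.05; the dashed line is the median of all genes. The 14 lowest values are cytosolic, and Hars2 is the lowest mitochondrial gene.

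The 7 genes listed for inherited peripheral neuropathy (Aars, Gars, Hars, Kars, Mars, Wars and Yars) were all called lower, and their median log2 fold change was -0.36. All 7 are cytosolic, where 19 of 20 genes were called lower with a median of -0.40, so this count shows nothing particular to the list. Gars, the glycyl enzyme and the first of them linked to Charcot-Marie-Tooth disease, had 511, 491 and 468 CPM in control and 348, 329 and 362 CPM in high glucose (1.42-fold lower). Aars, the alanyl enzyme, went from 542, 537 and 533 CPM to 415, 415 and 428 CPM (1.28-fold lower), and Mars, the methionyl enzyme, from 162, 166 and 162 CPM to 128, 128 and 125 CPM (1.29-fold lower). Hars, the histidyl enzyme, went from 88.7, 92.2 and 87.1 CPM to 76.2, 80.8 and 73.9 CPM (1.16-fold lower). The groups of each of these genes were apart in the same direction, and the fall of Kars was the least secure of the 7, as given above.

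The cytosolic genes were then read by list. The 13 commonly listed as ATF4-responsive all fell, by -0.68 to -0.34 on the log2 scale (median -0.47). Of the 7 others 6 fell, with a median of -0.19 and a range of -0.46 (Farsb) to 0.04 (Qars). Of those 7 only Farsb had a value below that of some genes of the first list, namely Tars, Iars, Cars, Mars, Aars and Lars. The 8 enzymes of the multisynthetase complex had a median of -0.27, with 7 lower, and the 12 outside it one of -0.47, with all 12 lower. By the fold of the catalytic domain there was little to separate them, with medians of -0.40 in the 10 class I genes and -0.40 in the 10 class II genes. Eprs, which also carries the prolyl enzyme, was counted in class I alone, by its glutamyl part. These lists overlap and were drawn up with earlier results of these data known, so their medians are a description.

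Cytosolic genes with and without the exact ATF4-type element had like medians of change but different ranges. Farsa, Hars, Kars and Qars, with the smallest changes among the cytosolic genes searched, lacked it. Eprs, Vars, Sars and Wars, among the largest falls (-0.60, -0.58, -0.57 and -0.51), lacked it too, while Yars, with the largest fall, held it. The search covered a single window per gene and had no promoter for Dars, Gars or Rars. The 7 with the element all fell, with a median of -0.42 and a range of -0.68 (Yars) to -0.36 (Aars). Of the 10 cytosolic genes with a promoter but no element in it 9 fell, with a median of -0.40 and a wider range of -0.60 (Eprs) to 0.04 (Qars). Among measured genes that are no synthetase, 24 of 65 with the element were lower (36.9%) and 12 were higher (median -0.08). Of those without it 27.1% were lower, with a median of 0.01. The looser form gave the opposite order, with 24.4% of 266 such genes lower against 27.2% of those without it.

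**Figure D3:**
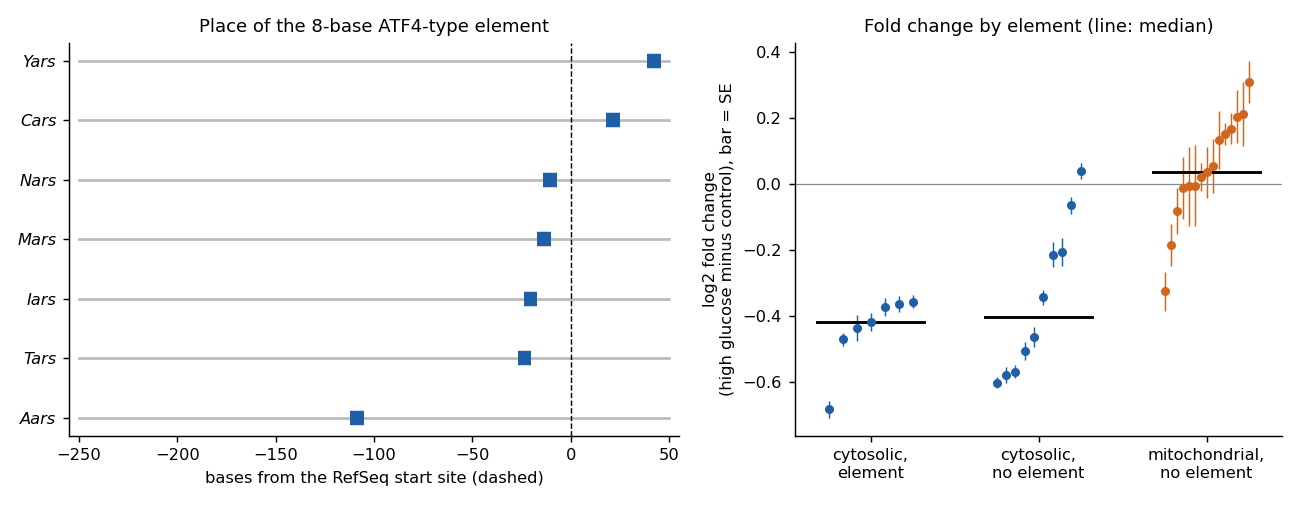
Left, place of the 8-base element (blue block) in the 300-base window of the 7 members that hold it, in bases from the RefSeq start; right, log2 fold change (bar, SE) of members with and without it, with the median as a line. The cytosolic medians, -0.42 and -0.40, are alike, and no mitochondrial member holds the element.

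Among the mitochondrial enzymes that rose were those for valine, isoleucine and leucine. Vars2, for valine, went from 16.6, 14.9 and 14.6 CPM to 18.1, 18.98 and 19.9 CPM, a 1.24-fold rise (0.31 ± 0.07, limma adjusted p = 0.00134). Iars2, for isoleucine, the mitochondrial gene with the most reads, went from 65.1, 61.3 and 63.3 CPM to 69.8, 71.0 and 69.8 CPM, a 1.11-fold rise. Lars2, for leucine, rose by 0.17 ± 0.05. In each of these genes the lowest high-glucose sample was above the highest control sample.

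Hars2 (ENSRNOG00000016087), the mitochondrial histidyl enzyme, went the other way. It had 19.1, 18.1 and 18.2 CPM in control and 15.2, 14.95 and 13.97 CPM in high glucose, a 1.25-fold fall (-0.33 ± 0.06, limma adjusted p = 0.000377). Fars2, the phenylalanyl enzyme, fell from 14.2, 15.6 and 14.6 CPM to 12.8, 12.8 and 13.4 CPM (-0.18 ± 0.06, adjusted p = 0.0271). The Fars2 call ended without control 2 (adjusted p = 0.115), high glucose 1 (0.0758) or high glucose 2 (0.0671) and with plain library totals (0.376), within a range of 0.0212 to 0.376.

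The 10 mitochondrial genes that did not pass had log2 fold changes of -0.08 (Rars2) to 0.21 (Cars2). Ears2, the glutamyl enzyme and the member with the fewest reads (434 in control, 465 in high glucose), had 4.7, 4.48 and 5.63 CPM in control and 5.28, 4.995 and 4.44 CPM in high glucose. Its interval, -0.27 to 0.26, spans a change as large as the fall of Farsa or of Rars. Nars2 lay near the threshold, with groups apart, a log2 fold change of 0.20 ± 0.08 and an adjusted p of 0.0516 in limma, and it passed under 6 of 15 alternatives. The standard errors were larger on this side, with a median of 0.0738 on the log2 scale against 0.0261 for the cytosolic genes, and the median member had 2454 reads over the 6 samples against 26587. A change of the size seen in Kars lies below that median standard error and was not detectable at this depth for most mitochondrial genes.

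Most amino acids had separate genes measured for both compartments. Counting Eprs with Ears2 and with Pars2, and each cytosolic phenylalanyl subunit with Fars2, there were 17 pairs. The cytosolic to mitochondrial ratio within a sample, which a single scaling factor per sample leaves as it is, was lower in high glucose in 14 pairs with no overlap between groups and overlapped in 3. No share for ratios of other gene pairs was worked out to set beside this count. In 19 of 20 cytosolic genes the groups were already apart and lower, so the count is not separate from that fall. The median change of the ratio was -0.57 on the log2 scale. With 3 samples against 3, an exact two-sided permutation test cannot go below p = 0.1, which each of the 14 pairs reached, so no pair can pass 0.05 by that test. Pairs that share Eprs or Fars2 are not independent. Quantile normalization can change the ratio: with it the log2 fold change of Eprs went from -0.60 to -0.43 and that of Ears2 from -0.01 to -0.05.

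The ratio moved most for valine and asparagine. Vars minus Vars2, as a difference of log2 levels, was 3.76, 3.86 and 3.89 in control and 3.01, 2.96 and 2.88 in high glucose, a change of -0.89 ± 0.05 SE, or 1.85-fold, made up of a fall of Vars and a rise of Vars2. Nars minus Nars2 was 5.49, 5.34 and 5.38 in control and 4.86, 4.68 and 4.65 in high glucose (-0.68 ± 0.08). The tyrosine, tryptophan, serine, glutamate, proline, cysteine, isoleucine, leucine, threonine and alanine pairs lay between -0.67 and -0.39, and Farsb against Fars2 at -0.28 ± 0.04.

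The ratio moved least for Farsa against Fars2, arginine and histidine. Farsa minus Fars2 was 1.85, 1.63 and 1.82 in control and 1.7, 1.84 and 1.69 in high glucose (-0.02 ± 0.08, exact permutation p = 0.9). Rars minus Rars2 was 2.99, 2.88 and 2.93 in control and 2.89, 2.85 and 2.74 in high glucose (-0.10 ± 0.05, exact permutation p = 0.2). Histidine, singled out after its values were seen, was the single pair with a change above 0. Hars minus Hars2 was 2.22, 2.35 and 2.26 in control and 2.32, 2.43 and 2.40 in high glucose (0.11 ± 0.05, exact permutation p = 0.2). Both histidyl genes fell, and their groups of ratios overlapped.

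**Figure D4:**
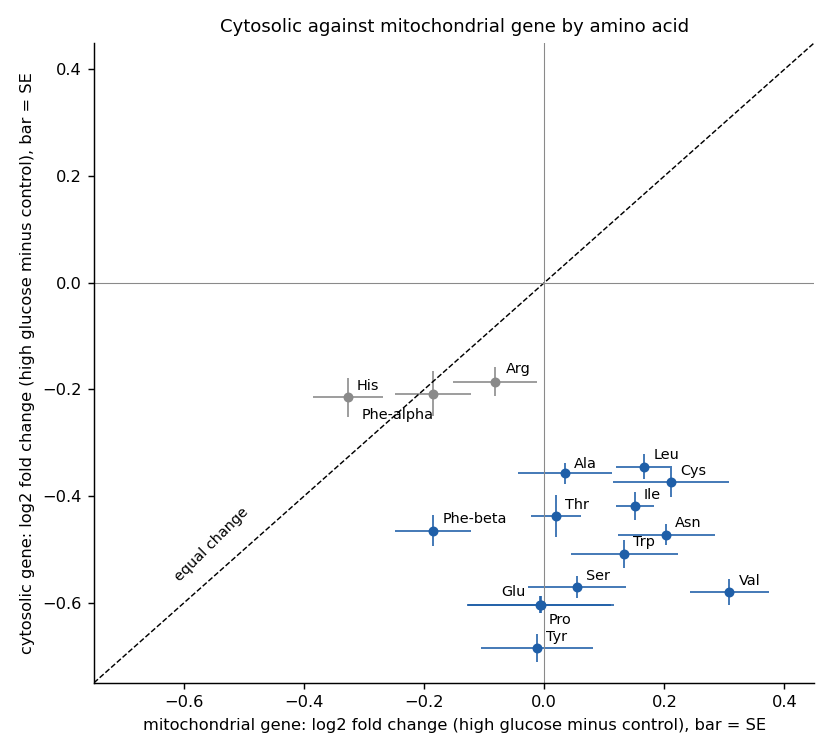
Log2 fold change (high glucose minus control) of the cytosolic gene (vertical) against that of the mitochondrial gene (horizontal) of an amino acid, bars showing SE; points under the dashed line have a lower cytosolic to mitochondrial ratio in high glucose, and grey points have overlapping ratios. Histidine is the single pair above the line, and the phenylalanine alpha pair lies nearly on it.

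Hars and Hars2 are also genomic neighbours that are transcribed away from each other, with 144 bases between their RefSeq starts in GRCr8. Of the members with a promoter entry, 8 had a gene transcribed away from them with a start within 1000 bases. Measured neighbours made 6 such entries, with the histidyl pair entered from both sides. Fars2, the other mitochondrial gene that fell, starts 361 bases from Lyrm4, which supports iron-sulfur cluster assembly and which fell by a like amount (-0.17 ± 0.06, limma adjusted p = 0.041). Kars starts 128 bases from Terf2ip, a telomere protein, which rose (0.20 ± 0.06, adjusted p = 0.0141). Ears2 starts 360 bases from Ubfd1, which rose (0.22 ± 0.04), and Rars2 79 bases from Orc3, where neither gene passed. At these GRCr8 starts the genes of such a pair point away from each other, so their first exons do not overlap there. Whether they overlap in Rnor_6.0, the build listed for the reads, was not examined. Whether counting used the strand is not given in the sources used here.

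Paralogs and helpers outside the naming rule, 14 genes in all, went in both directions. Those that fell included all 3 scaffold proteins of the multisynthetase complex. Eef1e1, also called AIMP3, went from 31.7, 30.9 and 31.4 CPM to 23.04, 22.1 and 22.8 CPM (-0.47 ± 0.04, limma adjusted p = 8.98e-07), Aimp1 fell by 0.35 on the log2 scale and Aimp2 by 0.24. Aarsd1, an editing protein related to the alanyl enzyme, and Tarsl2, a second cytosolic threonyl enzyme whose symbol lies outside the naming rule, fell by 0.19 and 0.24.

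Of the other helpers 5 rose and 4 did not pass. Gatb, a subunit of the mitochondrial amidotransferase that makes glutaminyl-tRNA in place of a mitochondrial glutaminyl synthetase, went from 5.78, 5.65 and 6.61 CPM to 10.3, 9.72 and 11.5 CPM, a 1.75-fold rise (0.81 ± 0.10, limma adjusted p = 9.86e-06). Of its partner subunits Gatc rose (0.30 ± 0.05) and Qrsl1, at 0.07 ± 0.12, did not pass. Dtd1, which removes D-amino acids from mischarged tRNA, rose 1.59-fold, and Pstk, which acts on the tRNA of selenocysteine, rose 1.31-fold. Sepsecs, also of the selenocysteine route, rose by 0.19 ± 0.07, and Dtd2 (-0.01), Prorsd1 (-0.05) and Mtfmt (0.08) did not pass. Over all 14 genes of this list 5 fell and 5 rose, with a median of 0.03, beside 25.5% lower and 24.9% higher among all genes.

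Further along the tRNA pathway no list moved as the cytosolic synthetases did. Of 23 genes of tRNA maturation and export 8 fell and 4 rose, with a median of -0.06. Over all genes 25.5% were called lower and 24.9% higher, and this count and those of the lists below are to be read beside these shares. The lowest of them was Xpot, the exportin that carries tRNA out of the nucleus, which went from 167, 168 and 164 CPM to 121, 115 and 113 CPM (1.43-fold lower, limma adjusted p = 5.28e-09). Nsun2, a tRNA methyltransferase, and Thg1l, which adds the guanine that marks histidine tRNA, also fell (-0.29 ± 0.03 and -0.42 ± 0.06). Tsen54, of the tRNA splicing endonuclease, rose by 0.34 ± 0.11. The proteins of RNase P, which trims the 5′ end of tRNA, were split. Rpp14 and Rpp38 rose by 0.18 ± 0.06 and 0.22 ± 0.08, while Rpp30 (-0.42 ± 0.06), Rpp21 (-0.32 ± 0.09), Pop4 (-0.29 ± 0.06) and Pop7 (-0.19 ± 0.07), named after their values were seen, fell. The other listed proteins of this enzyme, Pop1, Pop5, Rpp25 and Rpp40, did not pass.

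Among 40 measured tRNA modification genes there were 12 falls and 5 rises, and the median was -0.05. Pus7, a pseudouridine synthase, fell 1.52-fold, and Qtrt2, of the queuine-inserting enzyme, and Trmt10a, a methyltransferase, fell by 0.40 and 0.26 on the log2 scale. Trmt2a, Ctu1 and Lage3, a uridine methyltransferase, a thiolation enzyme and a subunit of the complex that makes threonylcarbamoyl-adenosine, rose by 0.42 ± 0.04, 0.52 ± 0.09 and 0.28 ± 0.05. RNA polymerase III, which transcribes tRNA genes, and its factors gave 5 lower and 7 higher of 23, with a median of 0.04. Gtf3a, Polr3e and Bdp1 fell (-0.47 ± 0.05, -0.29 ± 0.05 and -0.14 ± 0.02). Gtf3c1 and Gtf3c6, of the factor that binds inside tRNA genes, and Maf1, the repressor of the polymerase, rose (0.30 ± 0.03, 0.42 ± 0.07 and 0.37 ± 0.06).

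On the mitochondrial side, 4 of 11 measured translation factors fell and 1 rose, with a median of -0.05. Lrpprc, which stabilises mitochondrial mRNAs, fell by 0.38 on the log2 scale, and the elongation factors Gfm1 and Tufm fell by 0.16 and 0.14. Mtrf1, a release factor, rose by 0.26 ± 0.08. Among regulators, Atf4 went from 598, 596 and 594 CPM to 360, 361 and 372 CPM (1.64-fold lower), and Myc and Ddit3 fell 1.95-fold and 1.98-fold. The eIF2 kinases Eif2ak4 (GCN2, which senses uncharged tRNA) and Eif2ak3 (PERK) rose by 0.19 ± 0.03 and 0.37 ± 0.04, and Mtor, at -0.05 ± 0.04, did not pass.

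**Figure D5:**
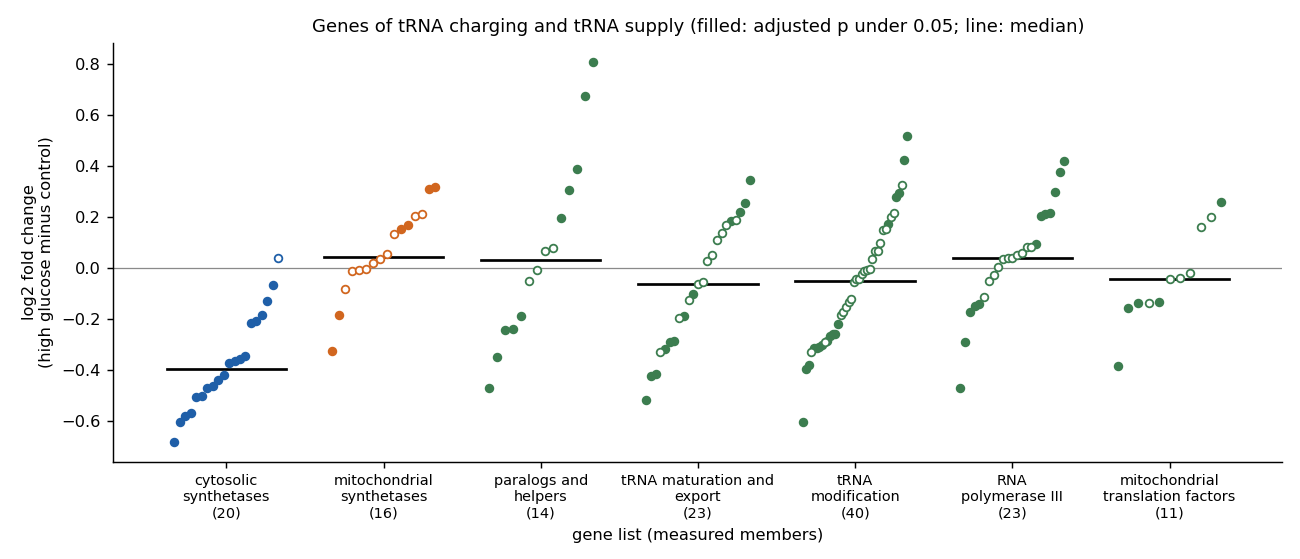
Log2 fold change (high glucose minus control) of every measured gene of each list, filled where the limma adjusted p is under 0.05, with the list's median as a line and the number measured in parentheses. The cytosolic synthetases have the lowest median, -0.40, and the other 6 lists have medians between -0.06 and 0.04.

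Markers of the cell types such a culture can hold moved in the same comparison. All 9 markers of Schwann and satellite glia were lower (summed level 480 to 503 CPM in control, 291 to 322 in high glucose), as were 7 of 10 neuron markers (102 to 106 CPM against 61.9 to 63.6, with a median log2 fold change of -1.73) and 4 of 5 mural markers (8693 to 8818 CPM against 4098 to 4202). Acta2 made up most of the mural sum (means of 6734 CPM in control and 2868 CPM in high glucose). Pdgfrb, the mural marker that did not pass, had a log2 fold change of -0.02 ± 0.02. Of 5 measured fibroblast markers 4 were higher and Col1a1 was lower (log2 fold change -0.41 ± 0.03). The sum over all 5, with Col1a1 in it, was 53976 to 56177 CPM in control against 50599 to 53197 in high glucose. Of 5 macrophage and 4 endothelial markers 1 passed, Csf1r, which was higher, at sums of 8.82 to 11.9 and 13.6 to 16.3 CPM over all samples. None of the measured markers was at 0 in a whole group, and the neuronal nuclear marker Rbfox3 had 6 reads in control and 9 in high glucose, Snap25 had 27 and 2 and Elavl4 63 and 7. Other neuron markers had more reads, with 504 and 85 for Prph (6.37-fold lower), 1093 and 259 for Stmn2 (4.57-fold lower), 2034 and 847 for Tubb3 (2.60-fold lower) and 5184 and 4584 for Uchl1 (1.22-fold lower), which made up most of the summed level. The part of these shifts in the synthetase changes was not tested.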

How the data were processed

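RNA from 6 samples (3 control, 3 high glucose) had been sequenced. The authors deposited a log2 value per gene and sample, voom-normalized as the table's name says. The submitters' processing notes list fastp 0.19.4, HISAT2 2.1.0, featureCounts 1.6.0 and Rnor_6.0, with no settings. Working back from the values gave whole reads for 100% of them (within 0.01), with 0.5 read added and library scaling factors of 0.959 to 0.964 (control) and 1.03 to 1.05 (high glucose).

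Groups came from sample titles. Every gene of the mRNA table entered a limma 3.58.1 fit (R 4.3.3; group as the single term, mean-variance trend, two-sided, Benjamini-Hochberg over 16551 genes, threshold 0.05). A count model was not run, as the deposited unit is log2. Read counts differed beyond counting error between all samples, so none was a copy of another and each was entered as 1 sample. This does not show that the samples came from separate cultures or animals. Members, lists, the rule for named genes and alternatives were chosen with earlier results of these data known. Values per sample were given for the 6 cytosolic and 4 mitochondrial genes with the smallest p and those called against their compartment. The members with the most and fewest reads and the neuropathy list were given in the same way. In related lists the rule was up to 3 genes per direction, most given by fold change and a few by sample. Protein sequences were not analysed here. One mitochondrial member entered the fit, the counts and the medians and is not reported here by itself, nor is its pair. The lncRNA table, scaled separately, was not used. Alternatives were other scalings (plain library totals, median-of-ratios, quantile), filters on low genes, 2 reads added, voom weights, a single variance prior, each sample left out and a replicate block. The fit code was also run on simulated counts from independent samples, which cannot show how it does if the replicates are technical. Promoters were RefSeq's (GRCr8). Figures used matplotlib 3.10.9.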

Additional observations from a re-analysis of the deposited data

How the results depend on the processing

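Of the 25 synthetase genes called, 21 kept their direction and side of the threshold under all 15 alternatives, 4 lost the call under some (Dars, Farsa, Fars2 and Kars) and 1 of these, Kars, also changed sign. Plain library totals gave 1 cytosolic gene higher, 1 mitochondrial gene lower and 8 higher, and medians of -0.28 (cytosolic) and 0.16 (mitochondrial). Quantile normalization gave 1 cytosolic gene higher and a cytosolic median of -0.37. Counting Gars and Kars as mitochondrial gave 4 mitochondrial genes lower. With 1 sample left out, 1 to 2 mitochondrial genes were lower, 4 to 6 were higher and their median ranged from 0.0390 to 0.0991; 1 was lower without control 2, high glucose 1 or high glucose 2. The median was 0.0991 without control 3 and 0.0800 without high glucose 3. The cytosolic count ranged from 18 to 19 and 14 to 15 pairs had lower ratios.

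Signs changed with plain library totals for Ears2 (0.108), Kars (0.0478), Pars2 (0.106), Rars2 (0.0316) and Yars2 (0.101), since that setting adds the same amount to every gene and these lay just below 0. With 1 sample left out the log2 fold change ranged from -0.0399 to 0.105 for Aars2, -0.0720 to 0.0928 for Ears2, -0.120 to 0.105 for Pars2, -0.0173 to 0.106 for Sars2, -0.00926 to 0.0456 for Tars2, -0.0690 to 0.0236 for Yars2 and -0.0908 to 0.0198 for the Farsa to Fars2 ratio. The cause of these leave-one-out changes was not tested. The replicate block left 18 cytosolic genes lower and 4 mitochondrial genes higher with 2 lower, losing Kars (adjusted p = 0.074). Replicate numbers did not pair the samples: deviations of same-numbered samples correlated at -0.0921, -0.0433 and 0.0255 over 12247 genes. Depth limits the mitochondrial genes, as given with Ears2.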
